A study of Mus musculus with 8 samples.

Results

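The 9 genes of fatty acid uptake and binding described here were read out in nuclei of adipocytes, macrophages and endothelium of mouse visceral white adipose tissue: Lpl, Cd36, Fabp4, Fabp5, Slc27a1, Acsl1, Gpihbp1, Angptl4 and Vldlr. They were chosen by symbol, each symbol matched 1 row of the feature list, and the 9 stand among 56749 features. The choice was made with earlier results of these data known. Counts of called genes set beside the share of all genes called are therefore descriptions only. The gene identifiers were ENSMUSG00000015568 for Lpl, ENSMUSG00000002944 for Cd36, ENSMUSG00000062515 for Fabp4, ENSMUSG00000027533 for Fabp5, ENSMUSG00000031808 for Slc27a1, ENSMUSG00000018796 for Acsl1, ENSMUSG00000022579 for Gpihbp1, ENSMUSG00000002289 for Angptl4 and ENSMUSG00000024924 for Vldlr.

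The study profiled single nuclei from frozen fat of 8 mice, 2 in each of 4 groups, in droplets, and its counts are of tagged RNA molecules (unique molecular identifiers, UMIs). Every mouse carried an engineered allele of p21 (Cdkn1a, a cell cycle inhibitor): p21+/mCherry mice, with the red fluorescent protein mCherry, received a standard diet (mCherry SD, rep144 and rep146) or a high-fat diet (mCherry HFD, rep128 and rep129). On the high-fat diet there were also p21+/mCherry-Tert mice (Tert HFD, rep134 and rep136) and p21+/mCherry-TertCi mice (TertCi HFD, rep138 and rep140). Tert encodes the catalytic subunit of telomerase, and the design text says that the p21 promoter drives Tert and TertCi. The labels used here do not spell out what TertCi is, and they give no age, sex, strain or length of diet. Nuclei were prepared from 2 mice at a time, and the labels do not say which mice shared a preparation, so preparation and group cannot be told apart. No mouse without an engineered p21 copy and no standard-diet mouse with Tert or TertCi was analysed here, so the effect of either transgene was read on the high-fat diet alone. The design text names the stromal vascular fraction and p21+/- mice, whereas the sample labels name visceral fat and p21+/mCherry, and the labels were followed.

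As background, triglyceride-rich lipoproteins are hydrolysed in capillaries by lipoprotein lipase, the product of Lpl, which parenchymal cells secrete and which GPIHBP1 carries across the endothelium to the capillary lumen. ANGPTL4 inhibits the enzyme, and VLDLR binds lipoproteins for uptake. The fatty acids released enter cells with the help of the scavenger receptor CD36 and the transport protein FATP1 (Slc27a1), are bound in the cytosol by the chaperones FABP4 and FABP5, and are activated to acyl-CoA by ACSL1. Many of these genes are targets of PPARγ, the master regulator of adipocyte differentiation, and lipid-laden macrophages of obese fat are known to express several of them.

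The libraries held 23378488 to 139749876 UMIs, and 30209 nuclei in 30 clusters were used, with a median of 1682 to 7134 UMIs per nucleus and library. The 9 genes were kept out of the clustering and out of the markers, so that no class was defined by them. A class is called adipocyte-like, macrophage-like or endothelial-like from its marker genes. Adipocyte-like nuclei numbered 686 and 962 in mCherry SD, 196 and 63 in mCherry HFD, 546 and 921 in Tert HFD and 1873 and 563 in TertCi HFD, in the order of the mice above. Macrophage-like nuclei numbered 109, 174, 3776, 1439, 959, 938, 1162 and 316, and endothelial-like nuclei 12, 24, 244, 85, 153, 107, 228 and 55. The 12 endothelial-like nuclei of mCherry SD rep144 fell under the minimum of 20, so that mCherry SD endothelium is 1 mouse. Only 119 nucleus barcodes occurred in more than 1 library, at most 14 in any pair.

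Adipocyte markers summed to 3323 to 6392 CPM (UMI counts scaled to a common total per class and library) in adipocyte-like nuclei and to 50.6 to 571 CPM in macrophage-like nuclei. Macrophage markers summed to 2239 to 3823 CPM in macrophage-like nuclei and to 173 to 881 CPM in adipocyte-like nuclei, highest in mCherry HFD at 679 and 881 CPM. Each of the 8 macrophage markers was counted in adipocyte-like nuclei of every library except Cd68 in mCherry SD rep144. The endothelial-like label was borne out only in part. Of its 908 nuclei, 239, 169 and 140 lay in 3 unnamed subclusters with macrophage markers at 1139 to 2941 CPM, led by genes such as Gpnmb and Mmp12, F13a1 and Cd163, or Cd226 and Cd200r1. Another 62 lay in a subcluster led by the lymphatic genes Reln, Mmrn1 and Prox1, also unnamed, with macrophage markers at 1829 CPM, endothelial markers at 1220.0 CPM and Lpl at 723 CPM. The other 298 nuclei, in capillary-like, arterial-like and venous-like subclusters, held macrophage markers at 226 to 248 CPM, and the Tert and TertCi results in endothelial-like nuclei are given for the whole class and for these nuclei alone.

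Different clusters held most of a class in different groups. Adipocyte-like nuclei came mainly from cluster 9 in mCherry SD (65.9%), from clusters 8 and 2 in mCherry HFD (49.8% and 43.6%), from clusters 17, 2 and 8 in Tert HFD (36.1%, 34.8% and 23.0%) and from cluster 2 in TertCi HFD (69.95%). Macrophage-like nuclei came from cluster 4 in mCherry SD (80.2%), from clusters 0, 13 and 11 in mCherry HFD (52.5%, 22.1% and 21.6%) and from clusters 4 and 5 in Tert HFD (44.5% and 45.5%) and TertCi HFD (55.3% and 41.7%). Values within a class therefore compare different sets of nuclei.

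RefSeq promoters (build GRCm38.p6, not the mm39 build named in the submitters' processing notes) were on hand for 4 of the 9 genes: Acsl1, Cd36, Slc27a1 and Vldlr. Those of Cd36 and Slc27a1 are shown because these 2 transport genes moved in different classes of nuclei below. Each run is the 250 bases before an annotated start, 5′ to 3′ on the gene's strand, and capitals mark 3 motifs searched on both strands. The CCAAT box occurs in 33.8% of all RefSeq mouse promoter windows of this length. The GC box core, spelled GGGCGG, occurs in 32.7%. The nuclear receptor half-site, spelled AGGTCA, to which PPARs bind as part of a longer element, occurs in 14.0%. They do not overlap in the sequences shown, and a match is a run of letters, not a measured binding site. The coordinates are chr5:17835897-17836146 (minus strand) for Cd36 and chr8:71568621-71568870, chr8:71569347-71569596 and chr8:71570344-71570593 (plus strand) for 3 starts of Slc27a1.
Cd36: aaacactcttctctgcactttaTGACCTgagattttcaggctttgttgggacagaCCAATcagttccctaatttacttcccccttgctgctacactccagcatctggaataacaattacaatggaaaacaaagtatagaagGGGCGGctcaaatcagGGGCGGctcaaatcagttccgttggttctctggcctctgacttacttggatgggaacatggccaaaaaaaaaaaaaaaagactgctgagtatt
Slc27a1 first start: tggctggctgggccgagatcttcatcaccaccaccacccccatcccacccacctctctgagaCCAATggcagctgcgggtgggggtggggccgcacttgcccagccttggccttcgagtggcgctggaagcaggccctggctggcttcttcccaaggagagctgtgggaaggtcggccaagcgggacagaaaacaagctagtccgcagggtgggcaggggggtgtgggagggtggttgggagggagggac
Slc27a1 second start: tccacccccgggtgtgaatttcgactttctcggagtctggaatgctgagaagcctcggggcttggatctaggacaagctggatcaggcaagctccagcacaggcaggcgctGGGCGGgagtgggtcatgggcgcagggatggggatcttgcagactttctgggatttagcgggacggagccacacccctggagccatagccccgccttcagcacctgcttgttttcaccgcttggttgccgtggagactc
Slc27a1 last start: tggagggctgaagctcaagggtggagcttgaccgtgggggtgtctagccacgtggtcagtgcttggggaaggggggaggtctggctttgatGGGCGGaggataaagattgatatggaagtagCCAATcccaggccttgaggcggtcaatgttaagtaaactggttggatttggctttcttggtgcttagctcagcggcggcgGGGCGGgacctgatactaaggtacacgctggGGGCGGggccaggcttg
The Cd36 window held 1 CCAAT box, 2 GC box cores and, on the opposite strand, 1 nuclear receptor half-site, which none of the Slc27a1 windows held.

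In adipocyte-like nuclei on the high-fat diet Slc27a1 fell and Fabp5 and Vldlr rose, while Lpl, Cd36, Fabp4, Acsl1 and Angptl4 did not pass the test. Lpl was at 669 and 892 CPM in mCherry SD and at 1202 and 1121 CPM in mCherry HFD. The groups did not overlap, and the share of all genes so separated was not counted. The fitted difference of 0.28 ± 0.27 (log2, SE) did not pass the test (edgeR quasi-likelihood test, adjusted p = 0.495). The fits also scale libraries by TMM factors, which the CPM values do not carry, so ratios of CPM can differ from fitted changes. Cd36 was at 1170 and 1558 CPM in mCherry SD and at 2072 and 1797 CPM in mCherry HFD, with a difference of 0.21 ± 0.23 (adjusted p = 0.549 by edgeR).

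Slc27a1, the fatty acid transport protein of muscle and fat, fell from 468 and 672 CPM in mCherry SD to 215 and 196 CPM in mCherry HFD. All 3 high-fat groups lay below both standard-diet mice except TertCi HFD rep138, and the share of all genes with this pattern was not counted. The fitted change was -1.76 ± 0.25 on the log2 scale (adjusted p = 0.00195 by edgeR). In barcodes with 10 to 100 UMIs, too few for a nucleus and taken here as free RNA, Slc27a1 stood at 298 and 923 CPM in mCherry SD and at 120 and 317 CPM in mCherry HFD. With this free RNA profile subtracted, the value was -1.25 with an adjusted p of 0.822 (edgeR). The subtraction removed 72.8% and 70.2% of the adipocyte-like UMIs in mCherry SD but 25.9% and 27.3% in mCherry HFD. It thus weighed unequally on the diets, and a diet call lost under it decides nothing about the gene.

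Fabp5, the epidermal fatty acid binding protein, was at 1.51 and 2.90 CPM in mCherry SD and at 35.4 and 20.5 CPM in mCherry HFD. The rise of 3.39 ± 0.51 (log2, adjusted p = 0.00259 by edgeR) rested on 125 UMIs in mCherry HFD and 25 in mCherry SD, a ratio of 13.7 with an exact 95% counting interval of 8.89 to 22.03 that covers counting error only. Without mCherry HFD rep128 it was 2.76 (adjusted p = 0.109 by edgeR). The free RNA levels of Fabp5 were 1.26 and 4.10 CPM in mCherry SD (3 and 1 UMIs) and 94.5 and 183 CPM in mCherry HFD (15 and 473 UMIs), and with that profile subtracted the change was 3.74 (adjusted p = 0.481 by edgeR). The summed macrophage markers in these nuclei were also higher in mCherry HFD, as given above. The 7 T and NK cell markers summed there to 24.5 and 20.9 CPM in mCherry SD, 121 and 89.0 CPM in mCherry HFD, 37.7 and 18.4 CPM in Tert HFD and 27.0 and 36.5 CPM in TertCi HFD, with 1 to 4 of them at 0 in every library but mCherry HFD rep128 (among them Cd3e, Themis, Trbc2 and Nkg7). The part of either marker list in the Fabp5 differences was not tested. Vldlr, the lipoprotein receptor, was at 21.1 and 30.7 CPM in mCherry SD and at 59.2 and 54.8 CPM in mCherry HFD. Its rise of 0.84 ± 0.25 passed the test (adjusted p = 0.0382 by edgeR) and was called in 7 of 16 settings tried. Leaving out mCherry SD rep144 or rep146, or mCherry HFD rep128 or rep129, gave 0.60, 1.01, 0.68 and 0.84, none past the threshold.

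Fabp4, Acsl1 and Angptl4 showed how far 2 mice of a group could lie apart. Fabp4, a cytosolic chaperone of adipocytes, was at 346 and 1232 CPM in mCherry SD and at 1864 and 1249 CPM in mCherry HFD (0.72 ± 0.57, adjusted p = 0.401 by edgeR). Acsl1, the main acyl-CoA synthetase of adipocytes, was at 620 and 1206 CPM against 2659 and 1963 CPM (1.06 ± 0.49, adjusted p = 0.146 by edgeR). Angptl4 was at 28.4 and 93.4 CPM against 182 and 91.3 CPM (0.95 ± 0.49, adjusted p = 0.192 by edgeR). For Fabp4, at 1232 against 1249 CPM where closest, and for Acsl1 no mCherry SD mouse reached either mCherry HFD mouse. The Angptl4 ranges overlapped. The share of all genes separated in this way was not counted. Gpihbp1 did not pass the filter on low counts in adipocyte-like nuclei, where 0 to 3.66 CPM were counted per library.

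Of the 8 genes tested, 3 were thus called for the diet in adipocyte-like nuclei, 2 higher and 1 lower, where 21.4% of the 14658 genes tested were called (13.2% higher and 8.25% lower). The median log2 change of the 8 was 0.78 and that of all genes tested 0.02. In simulated diet comparisons, changes of 1 on the log2 scale were recovered for 12%, 6% and 1% of genes in adipocyte-like, macrophage-like and endothelial-like nuclei, and changes of 2 for 67%, 67% and 21%. The simulations changed only 200 genes per class and gave every gene the same spread. With many more genes called in adipocyte-like and macrophage-like nuclei, the adjusted threshold is less strict, so these shares describe the simulated setting alone.

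Against mCherry HFD, Tert HFD adipocyte-like nuclei differed in Fabp5 alone, at 7.78 and 4.08 CPM with a change of -2.05 ± 0.47 on the log2 scale (adjusted p = 0.0451 by edgeR), so 1 of 8 genes was called, where 3.57% of all genes were called (1.09% higher and 2.48% lower). It was called in 7 of 16 settings tried. Leaving out mCherry SD rep144 or rep146, mCherry HFD rep128 or rep129, or Tert HFD rep136 gave -1.99, -2.003, -1.42, -2.24 and -1.82, none past the threshold. The pair of Tert HFD mice stood far apart: Lpl was at 1278 and 530 CPM, Cd36 at 1858 and 969 CPM and Acsl1 at 2726 and 571 CPM in rep134 and rep136. Cluster 17, which held 36.1% of the Tert HFD adipocyte-like nuclei, was drawn 91.4% from rep136. Rep136 was also the library with the fewest UMIs, 23378488 against 98229862 in rep134. Its nuclei were admitted from 987 UMIs against 4642, and its adipocyte-like nuclei held a median of 2070 against 10050 UMIs. Mouse and depth cannot be told apart here. Slc27a1 was at 261 and 263 CPM, with a fitted difference from mCherry HFD of 0.63 ± 0.24 (adjusted p = 0.155 by edgeR).

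TertCi HFD adipocyte-like nuclei differed from mCherry HFD in Fabp5 and Slc27a1, 2 of 8 genes where 15% of all genes were called (5.82% higher and 9.2% lower). Fabp5 was at 2.13 and 4.57 CPM, with a change of -2.86 ± 0.48 (adjusted p = 0.00761 by edgeR). Without mCherry HFD rep128 the Fabp5 value was -2.19 (adjusted p = 0.191 by edgeR). Slc27a1 was higher, at 483 and 303 CPM (1.34 ± 0.24, adjusted p = 0.00944 by edgeR). Without mCherry HFD rep128 or rep129 the Slc27a1 value was 1.505 or 1.33 with adjusted p of 0.0935 and 0.0627 (edgeR). With free RNA subtracted, which removed 25.9% to 72.8% of the UMIs of adipocyte-like nuclei, none of these calls against mCherry HFD was kept. The values were then -7.25 for Fabp5 in Tert HFD, and -0.72 for Fabp5 and 1.52 for Slc27a1 in TertCi HFD, each with an adjusted p of 1 (edgeR).

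**Figure D1:**
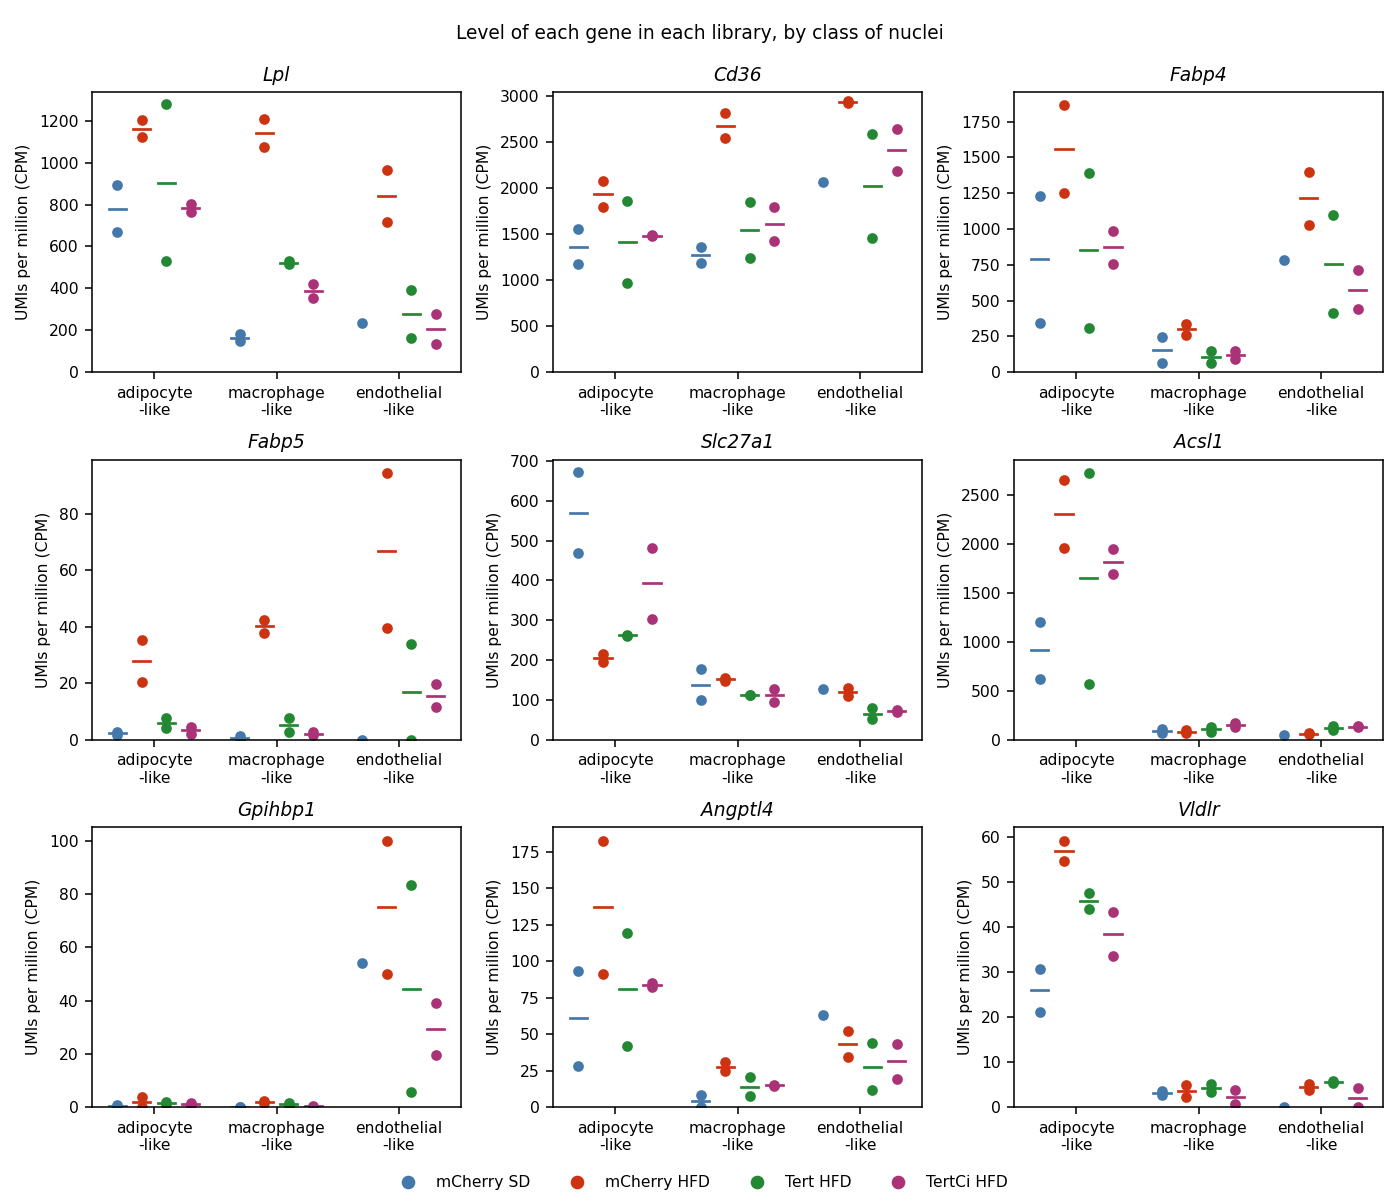
Level of each of the 9 genes in CPM (vertical axes, linear from 0), in each library with at least 20 nuclei of the class. Points are mice, short lines are means of 2 mice, colours are the 4 groups. In macrophage-like nuclei the mCherry HFD mice sit alone at the top for Lpl, at 1206 and 1076 CPM, and for Fabp5, at 38.0 and 42.5 CPM.

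In macrophage-like nuclei Lpl, Cd36, Fabp5 and Angptl4 were higher on the high-fat diet. Lpl was at 147 and 180 CPM in mCherry SD and at 1206 and 1076 CPM in mCherry HFD. The standard-diet mice lay far below every high-fat mouse, and the share of all genes with this pattern was not counted. The fitted rise was 2.63 ± 0.17 (log2, adjusted p = 4.37e-06 by edgeR) and was called in all 16 settings tried on the whole class, between 2.38 and 3.15. In barcodes with 10 to 100 UMIs, Lpl stood at 548 and 751 CPM in mCherry SD and at 1084 and 1780 CPM in mCherry HFD. In progenitor-like nuclei of the same libraries it stayed between 132 and 225 CPM in all 8 mice, while in mural-like nuclei it was at 77.3 CPM in mCherry SD rep146 and at 651 and 561 CPM in mCherry HFD. With the free RNA profile subtracted the macrophage-like rise was 3.15 (adjusted p = 2.64e-05 by edgeR).

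Cd36, the scavenger receptor and fatty acid transporter, was at 1189 and 1360 CPM in mCherry SD and at 2815 and 2544 CPM in mCherry HFD. Its rise of 0.91 ± 0.17 (adjusted p = 0.00297 by edgeR) was called in all 16 settings tried on the whole class. Fabp5 was counted with 0 and 1 UMIs in the 2 mCherry SD libraries and reached 38.0 and 42.5 CPM in mCherry HFD, with 1256 UMIs. The ratio of pooled counts was 45.7 with an exact 95% interval of 8.19 to 1807, and the adjusted p of the fit was 0.000556 (edgeR). Fabp5 was also present in progenitor-like nuclei, at 12.1 and 12.6 CPM in mCherry HFD and with no UMI in either mCherry SD mouse. Its free RNA level in mCherry HFD, 94.5 and 183 CPM, was above that in macrophage-like nuclei, and the rise was still called with this profile subtracted.

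Angptl4, the lipase inhibitor, was at 0 and 8.63 CPM in mCherry SD and at 30.7 and 24.8 CPM in mCherry HFD (2.14 ± 0.64, adjusted p = 0.0336 by edgeR). Its call was lost without mCherry SD rep144 (1.56, adjusted p = 0.15), without mCherry SD rep146 (adjusted p = 0.0579, with no UMI left in mCherry SD) and without mCherry HFD rep128 (1.995, adjusted p = 0.1 by edgeR). Leaving out TertCi HFD rep138, which enters only through the shared spread, gave 2.15 (adjusted p = 0.0509 by edgeR). Of the 8 genes tested 4 were called, all higher, where 11.4% of the 13754 genes tested were called higher, 9.45% lower and 20.9% in either direction. The remaining genes did not pass. Fabp4 was at 67.0 and 248 CPM against 258 and 339 CPM (0.68 ± 0.41, adjusted p = 0.263 by edgeR), Slc27a1 at 99.1 and 178 CPM against 154 and 148 CPM, and Acsl1 at 64.3 and 110 CPM against 67.5 and 95.1 CPM. Vldlr stayed at or under 5.07 CPM in every library.

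Markers of other cell types also differed between the diets in these nuclei, and their part in the changes was not tested. From mCherry SD to mCherry HFD, the 7 T and NK cell markers summed to 85.7 and 93.7 CPM against 266 and 235 CPM, and 2 and 3 of them were at 0 in mCherry SD (Cd3e and Trbc2 in both, Nkg7 in rep146). The 8 progenitor markers summed to 217 and 227 CPM against 325 and 687 CPM. The 8 adipocyte markers were lower on the high-fat diet, at 249 and 571 CPM against 50.6 and 97.2 CPM, and no marker of the last 2 lists was at 0.

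Tert HFD macrophage-like nuclei held less Lpl, Cd36, Fabp4 and Fabp5 than mCherry HFD. Lpl was at 516 and 530 CPM, with a change of -0.98 ± 0.15 (adjusted p = 0.00176 by edgeR) that was called in all 16 settings tried on the whole class. Fabp5, at 7.53 and 2.67 CPM, changed by -2.64 ± 0.35 (adjusted p = 0.000903 by edgeR), also called in all 16. Cd36, at 1846 and 1238 CPM, changed by -0.67 ± 0.16 (adjusted p = 0.0164 by edgeR). Its call was lost without mCherry HFD rep128 (-0.62, adjusted p = 0.119) and without Tert HFD rep136 (-0.44, adjusted p = 0.0911 by edgeR).

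Fabp4, at 145 and 65.5 CPM in Tert HFD, changed by -1.34 ± 0.39 (adjusted p = 0.0328 by edgeR) and was called in 10 of 16 settings tried. Without mCherry HFD rep128, mCherry HFD rep129 or Tert HFD rep136 its adjusted p was 0.0649, 0.123 or 0.0793 (edgeR). These were 4 of 8 genes, all lower, where 11% of all genes were called lower, 6.99% higher and 18% in either direction. Both Tert HFD mice lay below both mCherry HFD mice for each of the 4 genes. This adds nothing to the calls, since the genes were picked by the same mice, and the share of all genes so separated was not counted. Markers of other cell types in these nuclei, whose part was not tested, also differed between mCherry HFD and Tert HFD. The T and NK cell markers summed to 266 and 235 CPM against 115 and 94.9 CPM, with Cd3e, Trbc2 and Nkg7 at 0 in Tert HFD rep136. Progenitor markers summed to 325 and 687 CPM against 237 and 194 CPM, adipocyte markers to 50.6 and 97.2 CPM against 175 and 235 CPM, and endothelial markers to 30.6 and 46.5 CPM against 79.2 and 79.5 CPM, with none of these at 0.

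TertCi HFD macrophage-like nuclei held less Lpl, Cd36 and Fabp5 and more Acsl1 than mCherry HFD. Lpl was at 419 and 355.5 CPM (-1.40 ± 0.15, adjusted p = 0.000192 by edgeR) and Fabp5 at 2.69 and 1.61 CPM (-3.90 ± 0.42, adjusted p = 0.000186 by edgeR), and both were called in all 16 settings tried on the whole class. Cd36 was at 1791 and 1421 CPM (-0.59 ± 0.16, adjusted p = 0.0225 by edgeR). Leaving out any of 4 mice (mCherry HFD rep128 or rep129, TertCi HFD rep138 or rep140) ended the Cd36 call, with values of -0.75 to -0.39. The T and NK cell markers summed in these nuclei to 266 and 235 CPM in mCherry HFD and to 81.1 and 161 CPM in TertCi HFD, with Cd3e and Nkg7 at 0 in rep138 and Trbc2 and Nkg7 at 0 in rep140. Progenitor markers, none at 0, summed to 325 and 687 CPM against 162 and 102 CPM, and the part of either list in the changes was not tested.

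Acsl1 rose from 67.5 and 95.1 CPM in mCherry HFD to 166 and 129.5 CPM in TertCi HFD (1.03 ± 0.23, adjusted p = 0.00779 by edgeR). The value was 0.77 without mCherry HFD rep128 (adjusted p = 0.113) and 0.85 without TertCi HFD rep138 (adjusted p = 0.118 by edgeR). In barcodes with 10 to 100 UMIs, Acsl1 stood at 265 and 260 CPM in mCherry HFD and at 1156 and 960 CPM in TertCi HFD, and with this profile subtracted the macrophage-like difference was 0.26 (adjusted p = 0.584 by edgeR). The 8 adipocyte markers, none of them at 0, summed in the same macrophage-like nuclei to 50.6 and 97.2 CPM in mCherry HFD and to 286 and 211 CPM in TertCi HFD, and their part in the difference was not tested. In progenitor-like nuclei Acsl1 was at 39.6 and 47.8 CPM in mCherry HFD and at 127 and 65.9 CPM in TertCi HFD. In all, 4 of 8 genes were called, 3 lower and 1 higher, where 24.8% of all genes were called (14.8% lower and 10% higher). Fabp4, not called for TertCi, was at 92.5 to 151 CPM in TertCi HFD and changed by -1.11 ± 0.39 (adjusted p = 0.0550 by edgeR). Acsl1, not called for Tert, changed there by 0.57 ± 0.23 (adjusted p = 0.111 by edgeR). Between Tert HFD and TertCi HFD, Fabp4 differed by -0.23 ± 0.40 and Acsl1 by -0.47 ± 0.23, neither called. The Tert and TertCi contrasts share the mCherry HFD mice.

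**Figure D2:**
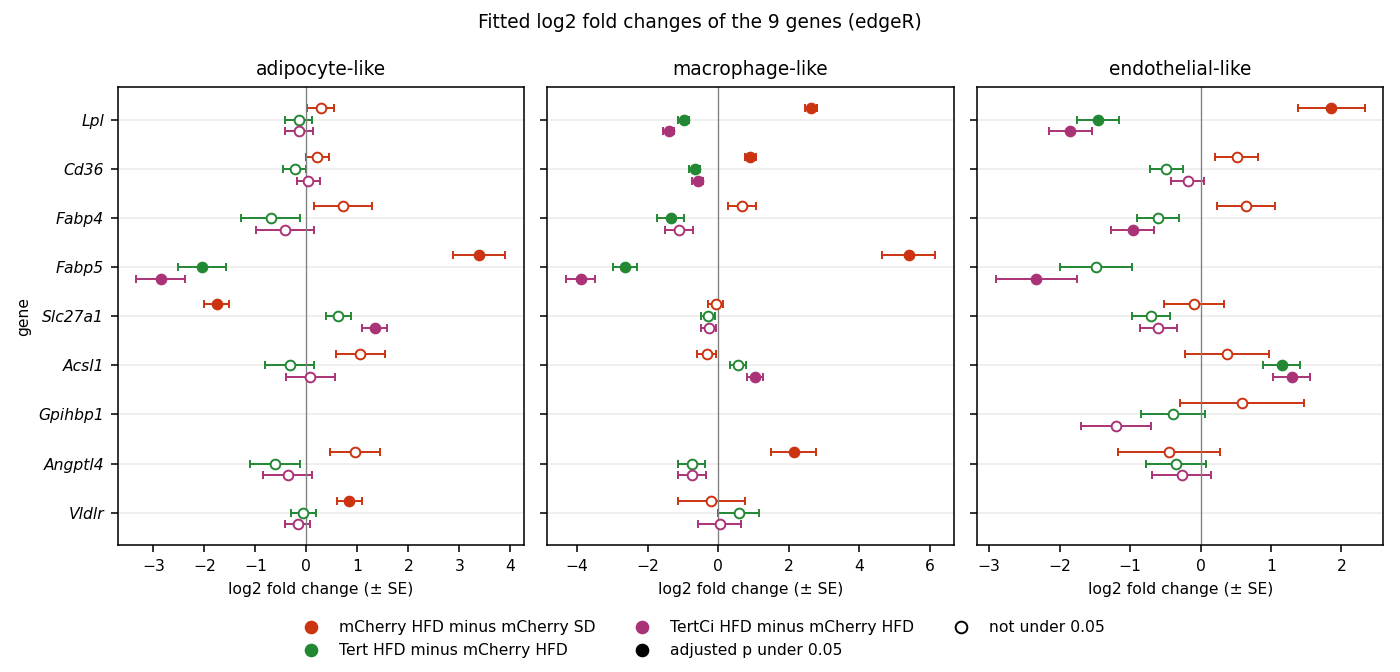
Fitted log2 fold change (horizontal axes) for each gene and 3 contrasts in the 3 classes, with a standard error derived from the test statistic. Filled points passed the adjusted p of 0.05. Gpihbp1 was not tested in adipocyte-like and macrophage-like nuclei nor Vldlr in endothelial-like nuclei, and the diet value of endothelial Fabp5 is left out because its standard-diet library held no UMI. Lpl stands at 2.63, -0.98 and -1.40 in macrophage-like nuclei and at 0.28, -0.15 and -0.15 in adipocyte-like nuclei.

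The makeup of the macrophage-like class differed between groups in the same direction as Lpl. Subclusters were called lipid-associated-like with 4 to 7 raised markers among Trem2, Cd9, Spp1, Gpnmb, Lgals3, Itgax and Atp6v0d2. Of these, subcluster 4 (1017 nuclei, 5 markers raised) was drawn 47.3% from Tert HFD rep136. Subcluster 6 (466 nuclei) was led by cell cycle genes such as Top2a and Kif11. Lipid-associated-like subclusters made up 5.50% and 5.75% of macrophage-like nuclei in mCherry SD, 77.5% and 77.6% in mCherry HFD, 24.3% and 52.9% in Tert HFD and 24.4% and 29.7% in TertCi HFD. Perivascular-like subclusters, with markers such as Lyve1, Cd163 and F13a1, made up 84.4% and 78.7%, 19.6% and 19.9%, 62.4% and 37.0%, and 58.2% and 50.3% in the same order. Lpl in lipid-associated-like nuclei was at 1403 and 1303 CPM in mCherry HFD, at 1156 and 836 CPM in Tert HFD and at 1070 and 817 CPM in TertCi HFD. In perivascular-like nuclei it was at 102 and 137.7 CPM in mCherry SD, 536 and 404 CPM in mCherry HFD, 234 and 142 CPM in Tert HFD and 139 and 88.1 CPM in TertCi HFD.

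Within lipid-associated-like nuclei alone, a comparison added after seeing the data, Gpihbp1 and Vldlr did not pass the filter on low counts. Of the other genes none was called for Tert and only Fabp5 for TertCi (-2.46 ± 0.58, adjusted p = 0.0305 by edgeR). Of the 10718 genes tested there 8.54% and 9.69% were called. The difference in Lpl was -0.32 ± 0.14 (adjusted p = 0.202) for Tert and -0.37 ± 0.14 (adjusted p = 0.137 by edgeR) for TertCi. Fabp4 differed by -1.12 ± 0.31 (adjusted p = 0.0553) for Tert and -0.99 ± 0.33 (adjusted p = 0.0835 by edgeR) for TertCi. Fabp5 for Tert was at -1.53 ± 0.46 (adjusted p = 0.0703 by edgeR). Cd36 was at 3192 and 2986 CPM in mCherry HFD, 3893 and 1881 CPM in Tert HFD and 3421 and 2993 CPM in TertCi HFD. Its differences were 0.0014 ± 0.21 for Tert and 0.20 ± 0.21 for TertCi, against -0.67 and -0.59 in the whole class. The diet could not be tested there, since mCherry SD had 6 and 10 such nuclei.

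Within perivascular-like nuclei alone, also added after seeing the data, Lpl rose with the diet by 1.82 ± 0.26 (adjusted p = 0.000673) and differed from mCherry HFD by -1.21 ± 0.23 in Tert HFD (adjusted p = 0.00351) and by -1.88 ± 0.24 in TertCi HFD (adjusted p = 0.000189, all by edgeR), where 14.8%, 11.9% and 18.3% of 9138 genes were called. Fabp5 was called in the same 3 contrasts, with no UMI in either mCherry SD mouse and 22.5 and 24.3 CPM in mCherry HFD. Cd36 was at 1207 and 1449 CPM in mCherry SD and at 1646 and 1286 CPM in mCherry HFD, a difference of 0.016 ± 0.281 (adjusted p = 0.982 by edgeR). Angptl4 was also called for the diet and Acsl1 for TertCi, while Cd36 passed no test inside either set of subclusters. In perivascular-like nuclei Cd36 differed by -0.60 ± 0.28 for Tert (adjusted p = 0.199) and -0.29 ± 0.28 for TertCi (adjusted p = 0.523, by edgeR). The perivascular-like nuclei came from subclusters 1 and 3. Subcluster 3 (1063 nuclei) was drawn 69.2% from mCherry HFD rep128, and subcluster 1 (1973 nuclei) most from TertCi HFD rep138 (34.1%). With libraries pooled, subclusters 1 and 3 held Lpl at 157 and 524 CPM and Fabp5 at 1.60 and 22.1 CPM. The groups therefore still compare different sets of nuclei here.

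**Figure D3:**
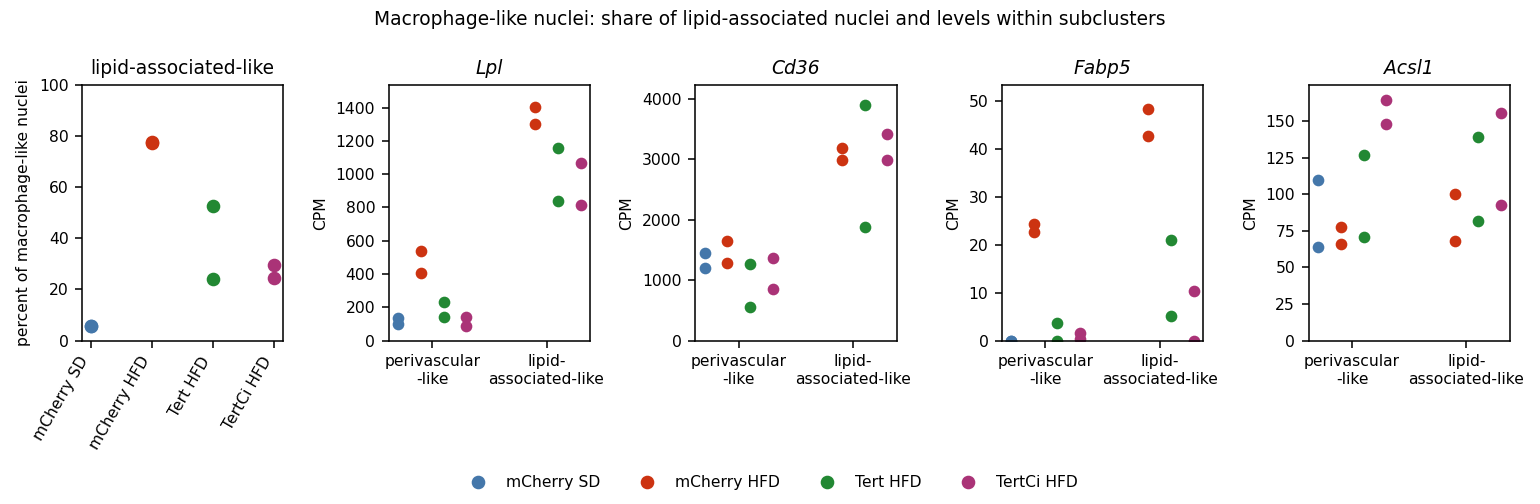
Left, percent of macrophage-like nuclei in lipid-associated-like subclusters per mouse; right, level (CPM) of 4 genes within perivascular-like and lipid-associated-like nuclei, for libraries with at least 20 such nuclei, so that mCherry SD is absent from the latter. Points are mice. Lpl was 1403 and 1303 CPM in lipid-associated-like nuclei of mCherry HFD and 88.1 to 536 CPM in all perivascular-like sums.

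In endothelial-like nuclei as a whole, Lpl was lower in both Tert groups than in mCherry HFD, and higher in mCherry HFD than in the 1 mCherry SD mouse tested. It was at 235 CPM in the 1 mCherry SD mouse, at 964 and 715 CPM in mCherry HFD, at 393 and 161 CPM in Tert HFD and at 279 and 133 CPM in TertCi HFD. The changes were 1.85 ± 0.48 for the diet (adjusted p = 0.0492), -1.46 ± 0.30 for Tert (adjusted p = 0.00646) and -1.85 ± 0.31 for TertCi (adjusted p = 0.000738, all by edgeR). The diet value sets 1 mouse with 24 nuclei and 26 Lpl UMIs against 2, and assumes that this mouse varies like those of the other groups. Summed macrophage markers in these nuclei were 2115 CPM in mCherry SD, 1617 to 1870 CPM in mCherry HFD, 1267 to 1632 CPM in Tert HFD and 830 to 1428 CPM in TertCi HFD. T and NK cell markers summed to 27.1 CPM in mCherry SD, 227 and 160.4 CPM in mCherry HFD, 111 and 46.1 CPM in Tert HFD and 161 and 78.5 CPM in TertCi HFD, with up to 5 of the 7 at 0 in a library. Adipocyte markers summed to 596 CPM in mCherry SD against 94.5 and 121 CPM in mCherry HFD, and the part of these lists in the Lpl changes was not tested. Subcluster 0, led by Gpnmb and Mmp12 and drawn 69.5% from mCherry HFD rep128, carried Lpl at 1070 CPM, against 239, 157 and 101 CPM in the capillary-like, arterial-like and venous-like subclusters.

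Restricted to those last 3 subclusters, Lpl was at 265 and 473 CPM in mCherry HFD, 140 and 64.0 CPM in Tert HFD and 196 and 149 CPM in TertCi HFD. Neither difference in Lpl passed the test: it was -1.61 ± 0.41 for Tert (adjusted p = 0.206) and -0.95 ± 0.39 for TertCi (adjusted p = 0.327, by edgeR). The diet could not be tested, as mCherry SD had 1 and 4 such nuclei. This restriction was added after seeing the data, and 22 to 123 nuclei per high-fat mouse remained. They were 22 of 244 and 22 of 85 endothelial-like nuclei in mCherry HFD and 48 of 153 and 56 of 107 in Tert HFD. In TertCi HFD they were 123 of 228 and 22 of 55. Contrasts in the whole class therefore compare different sets of nuclei.

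Acsl1 in endothelial-like nuclei was at 53.7 and 68.4 CPM in mCherry HFD, 140 and 104 CPM in Tert HFD and 137 and 129.5 CPM in TertCi HFD. It was higher by 1.15 ± 0.26 (adjusted p = 0.0117) for Tert and 1.29 ± 0.26 (adjusted p = 0.00264, by edgeR) for TertCi. Free RNA levels of Acsl1 were 265 and 260 CPM in mCherry HFD, 898 and 352 CPM in Tert HFD and 1156 and 960 CPM in TertCi HFD, and with that profile subtracted the changes were 0.62 (adjusted p = 0.827) and 0.61 (adjusted p = 0.771 by edgeR). Summed adipocyte markers in these nuclei were 94.5 and 121 CPM in mCherry HFD, 298 and 282 CPM in Tert HFD and 351 and 219.7 CPM in TertCi HFD, with Adrb3 or Pck1 at 0 in 1 mCherry HFD mouse each and Adipoq and Pck1 at 0 in Tert HFD rep136, and their part in the change was not tested.

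In the capillary-like, arterial-like and venous-like nuclei alone, Acsl1 was at 80.2 and 105 CPM in mCherry HFD, 100.3 and 76.8 CPM in Tert HFD and 147 and 264 CPM in TertCi HFD. Neither difference passed the test there, at 0.046 ± 0.52 (adjusted p = 0.993) for Tert and 1.09 ± 0.48 (adjusted p = 0.385 by edgeR) for TertCi. Cd36 in these nuclei differed by -0.081 ± 0.338 and -0.042 ± 0.338 (adjusted p = 0.988 and 0.985 by edgeR).

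Fabp4, which capillary endothelium also expresses, was at 1398 and 1031 CPM in mCherry HFD and at 711 and 439.5 CPM in TertCi HFD (-0.96 ± 0.30, adjusted p = 0.0375 by edgeR). In the capillary-like, arterial-like and venous-like nuclei it was at 3721 and 2087 CPM against 980 and 597 CPM, and -1.84 ± 0.41 there (adjusted p = 0.0466 by edgeR) was the only call among the 6 of the 9 genes tested (Fabp5, Slc27a1 and Vldlr did not pass the filter on low counts), where 0.923% of 2710 genes were called. For Tert none of the 6 was called there, where 0.148% of genes were, and Fabp4 was at -1.55 ± 0.41 (adjusted p = 0.218 by edgeR). Fabp5 in the whole class was lower in TertCi HFD, at 11.6 and 19.6 CPM against 94.5 and 39.4 CPM (-2.33 ± 0.58, adjusted p = 0.0102 by edgeR). No Fabp5 UMI was found in 24 nuclei of mCherry SD rep146, where 3 UMIs would be 27.1 CPM.

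Among 8 genes tested, 1 was called for the diet, 2 for Tert (1 higher, 1 lower) and 4 for TertCi (1 higher, 3 lower), where 2.48%, 9.04% and 16.5% of the 8239 genes tested were called. The shares called higher were 1.46%, 3.51% and 7.32%, and those called lower 1.02%, 5.53% and 9.15%. Lpl for TertCi was called in all 14 settings tried on the whole class, between -2.60 and -1.52. These settings were not restricted to the capillary-like, arterial-like and venous-like nuclei, where the value was -0.95 (adjusted p = 0.327 by edgeR). Without mCherry HFD rep128, which gave 244 endothelial-like nuclei against 85 from rep129, none of the other 6 calls passed: Lpl was at 1.59 and -1.24 for diet and Tert, Acsl1 at 0.91 and 1.05 for Tert and TertCi, Fabp4 at -0.74 and Fabp5 at -1.40. Lpl for Tert was -1.09 (adjusted p = 0.0514) without Tert HFD rep136, and Acsl1 for Tert was 0.97 (adjusted p = 0.177 by edgeR) without rep134. For TertCi, leaving out rep138 ended the calls of Fabp4 (-1.41), Fabp5 (-1.86) and Acsl1 (1.21), and leaving out rep140 that of Fabp4 (-0.70). DESeq2 on the same sums called Lpl for TertCi and none of the other 6.

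Gpihbp1, the endothelial carrier of the lipase, had its highest levels in endothelial-like nuclei, at 54.2 CPM in mCherry SD, 100 and 49.9 CPM in mCherry HFD, 83.3 and 5.76 CPM in Tert HFD and 39.1 and 19.6 CPM in TertCi HFD. No change passed the test (adjusted p = 0.794, 0.694 and 0.110 for diet, Tert and TertCi by edgeR). With all libraries pooled, its level was highest in the capillary-like subcluster, at 168 CPM, against 24.4 and 36.7 CPM in the arterial-like and venous-like ones. The unnamed subclusters 0, 1, 3 and 5 held 91.5, 55.6, 44.2 and 17.1 CPM. Within the capillary-like, arterial-like and venous-like nuclei Gpihbp1 was at 313 and 140.3 CPM in mCherry HFD, 136.1 and 12.8 CPM in Tert HFD and 51.1 and 11.47 CPM in TertCi HFD, where the lower mouse of each Tert group had 1 UMI. The differences of -1.35 ± 0.61 for Tert (adjusted p = 0.664) and -2.53 ± 0.65 for TertCi (adjusted p = 0.0832, by edgeR) did not pass the test. In macrophage-like and progenitor-like nuclei it stayed at or under 2.26 and 2.90 CPM.

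**Figure D4:**
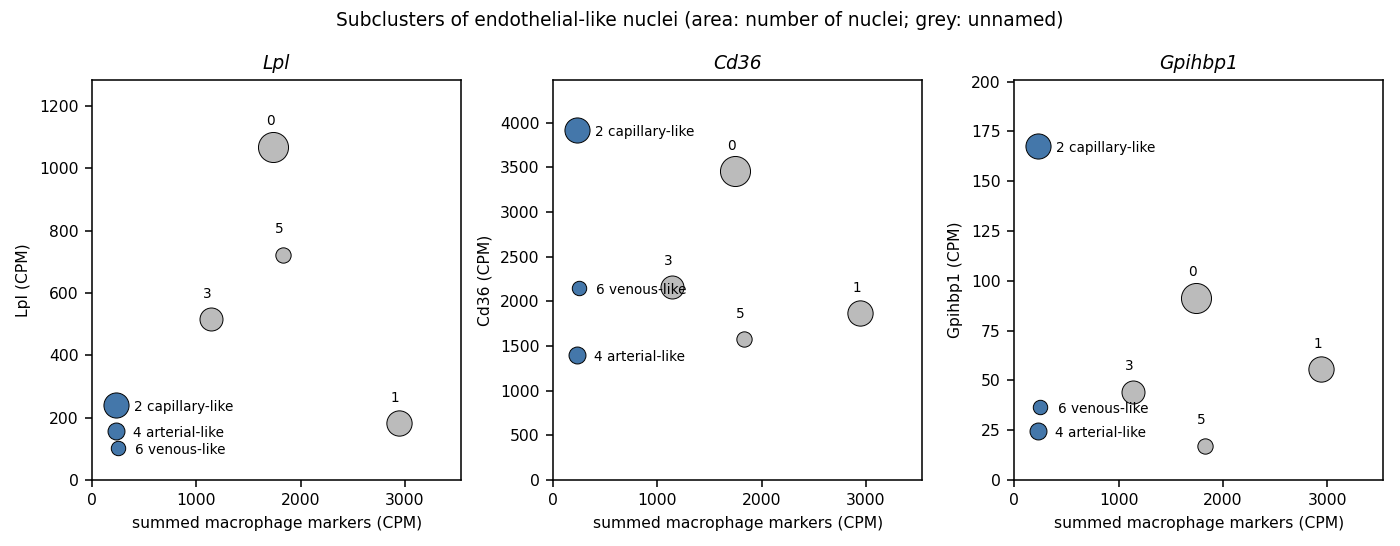
Level of Lpl, Cd36 and Gpihbp1 (vertical axes, CPM) against summed macrophage markers (horizontal axis, CPM) in the 7 subclusters of endothelial-like nuclei, all libraries pooled; area is the number of nuclei and grey subclusters are unnamed. The capillary-like subcluster has Gpihbp1 at 168 CPM and Lpl at 239 CPM, and subcluster 0 has Lpl at 1070 CPM with macrophage markers at 1739 CPM.

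The diet changed several of these genes differently in macrophage-like and adipocyte-like nuclei. The difference of the 2 log2 changes, fitted in 1 model with the library as a block, was 2.48 ± 0.27 for Lpl (adjusted p = 6.15e-07), 1.85 ± 0.23 for Slc27a1 (adjusted p = 5.16e-06), 0.82 ± 0.20 for Cd36 (adjusted p = 0.0118) and -1.21 ± 0.34 for Acsl1 (adjusted p = 0.0316, all by edgeR). The median over all genes in this fit was 0.23. These were 4 genes where 5.4% of the 16459 genes tested were called. For Tert the difference was called for Slc27a1 (-1.002 ± 0.21, adjusted p = 0.00661 by edgeR), where 2.17% of genes were called and the median over all genes was -0.13. For TertCi it was called for Slc27a1 (-1.74 ± 0.22, adjusted p = 9.97e-06), Lpl (-1.37 ± 0.25, adjusted p = 0.000854) and Cd36 (-0.74 ± 0.20, adjusted p = 0.0237, by edgeR), where 5.49% were called and the median was -0.14.

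The Lpl and Slc27a1 differences for the diet and for TertCi were called whichever mouse was left out. Without mCherry HFD rep129 the Cd36 differences were 0.81 and -0.61 and the Slc27a1 difference for Tert was -0.88, none past the threshold. The Cd36 call was also lost without mCherry SD rep146 (0.78) for the diet and without TertCi HFD rep140 (-0.59) for TertCi, and that of Acsl1 without mCherry SD rep146 (-1.25) or mCherry HFD rep128 (-0.65). With the free RNA profile subtracted none of the differences was called, and that of Slc27a1 for the diet changed sign to -2.03 (adjusted p = 0.92 by edgeR).

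None of the 9 genes was called between Tert HFD and TertCi HFD. By edgeR 0 of 8 genes were called in adipocyte-like and in macrophage-like nuclei, where 0% of all genes were called, and 0 of 8 in endothelial-like nuclei, where 0.0364% were (0.0243% higher and 0.0121% lower), and DESeq2 also called 0. At an unadjusted p under 0.05 by edgeR, Slc27a1 in adipocyte-like nuclei (0.0115) and Lpl and Fabp5 in macrophage-like nuclei (0.0156 and 0.0222) passed. So did 882 of all 14658 genes tested in adipocyte-like nuclei and 538 of 13754 in macrophage-like nuclei. Lpl in macrophage-like nuclei was at 516 and 530 CPM in Tert HFD and at 419 and 355.5 CPM in TertCi HFD, a difference of 0.43 ± 0.15 (adjusted p = 1.00 by edgeR). A p that misses the threshold does not show that the 2 groups are alike.

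The share of a gene's UMIs found in a class depends on both its level there and the number of nuclei. In mCherry SD, 36.4% ± 6.26 (SD, n = 2) of the Lpl UMIs in nuclei came from adipocyte-like and 0.9% from macrophage-like nuclei. In mCherry HFD the shares were 6.1% and 56.7% ± 3.8, in Tert HFD 38.5% and 19.1%, and in TertCi HFD 52.5% and 8.1%. Cd36 moved likewise, with 60.9% of its UMIs in macrophage-like nuclei in mCherry HFD against 3.6% in mCherry SD. Acsl1 remained mainly an adipocyte-like and mixed transcript, with at most 12.5% in macrophage-like nuclei on average in a group. Mixed clusters, with markers of more than 1 lineage, held 23.6% to 56.3% of the Lpl and Cd36 UMIs on average per group.

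**Figure D5:**
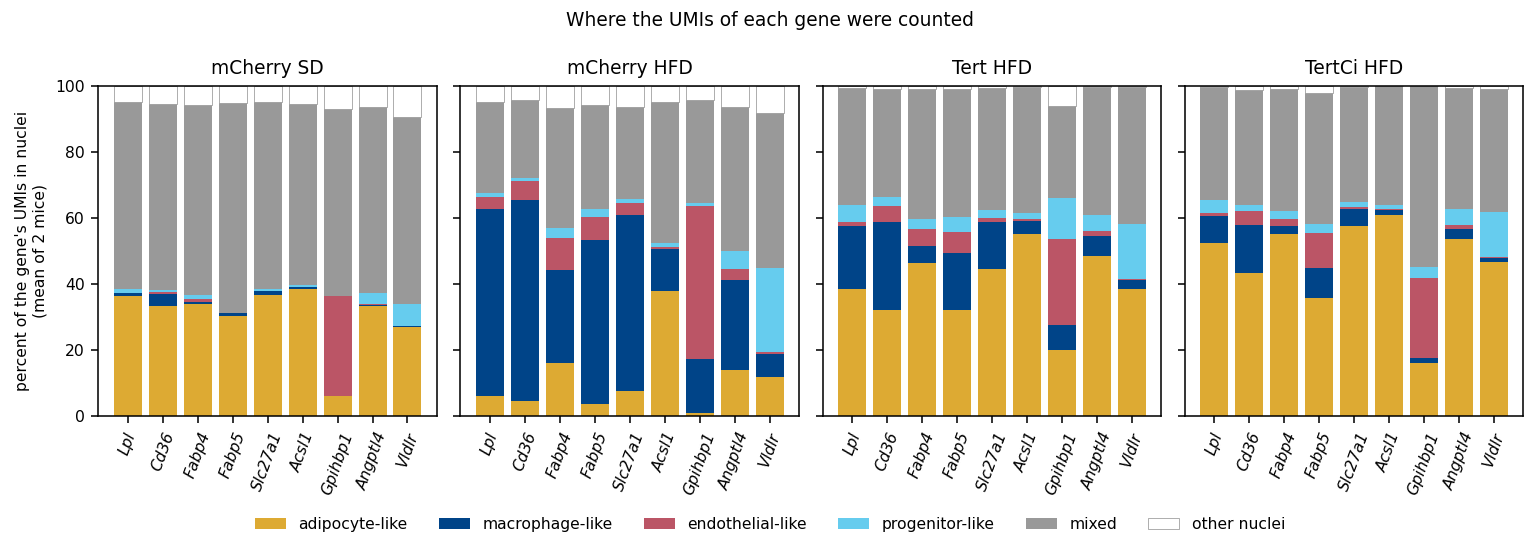
Percent of the UMIs of each gene in nuclei (vertical axis, mean of 2 mice) by class in the 4 groups. Macrophage-like nuclei (dark blue) hold 56.7% of Lpl and 60.9% of Cd36 UMIs in mCherry HFD and 0.9% and 3.6% in mCherry SD.

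Related genes of the same pathway were read from the same fits. Of 11 tested partners in lipoprotein lipolysis and uptake, 6 were higher and 0 lower for the diet in macrophage-like nuclei (median 0.73, against 0.10 over all genes), where 11.4% of all genes were called higher and 9.45% lower. Among them were Lrp1, a lipoprotein receptor, from 117 ± 32.2 to 544 ± 37.3 CPM (SD, n = 2), and Lipa, the lysosomal lipase, from 93.6 ± 19.1 to 436 ± 61.3 CPM. In adipocyte-like nuclei 3 of 11 were higher and 1 lower, where 13.2% of all genes were called higher and 8.25% lower, with Lipa from 22.7 ± 2.53 to 98.2 ± 0.05 CPM and Apoe, which macrophages also make, from 18.4 ± 8.996 to 135.98 ± 17.6 CPM. Of 15 tested genes of fatty acid oxidation and other PPAR targets, 5 were higher in adipocyte-like nuclei (13.2% of all genes) and 3 in macrophage-like nuclei (11.4% of all genes), and none was lower. Plin2, a lipid droplet coat protein, rose in both, from 84.3 ± 9.11 to 379 ± 29.4 CPM and from 196 ± 73.0 to 911 ± 79.2 CPM. Summed macrophage markers in adipocyte-like nuclei were also higher, at 389 and 452 CPM in mCherry SD against 679 and 881 CPM in mCherry HFD. Their part in the adipocyte-like rises of Lipa, Apoe and Plin2 was not tested.

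Of 16 transcription factors known to act on these genes, 3 were lower and none higher for the diet in adipocyte-like nuclei, against 8.25% and 13.2% of all genes. Pparg fell from 2907 ± 509 to 1585 ± 198 CPM (adjusted p = 0.032 by edgeR), and Rxra and Ppara were the other two. In macrophage-like nuclei 3 of 12 were higher and 3 lower (Foxo1, Rxra and Ppard), against 11.4% and 9.45% of all genes. Of other genes of fatty acid transport, binding and activation, 2 of 11 were lower in adipocyte-like nuclei (Scarb1 and Cav1) and 1 of 10 in macrophage-like nuclei (Cav1), against 8.25% and 9.45% of all genes called lower. Between Tert HFD and TertCi HFD no gene of these lists was called in any of the 3 classes. The lists were written with earlier results of these data known.

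Over 43 sums of class and library, the genes whose levels were most like those of a member were, by Pearson correlation of log2 CPM with an offset of 5, Kank3 and Sox18 for Gpihbp1 (0.89 and 0.88), Piezo1 and Dock8 for Cd36 (0.89 and 0.85) and 4933406I18Rik and Por for Slc27a1 (0.86 and 0.85). For Fabp5 they were the ribosomal protein genes Rpl36 and Rpl18 (0.89 both). Lpl was most like Gm15414 (0.86), Fabp4 and Angptl4 most like Gm15581 (0.84 and 0.80) and Vldlr most like Actr3b (0.86). These are descriptions over sums that share mice, depth and class. Among the 9 genes themselves, the highest value was 0.73 between Fabp4 and Angptl4 and the next 0.70 between Slc27a1 and Acsl1, while Cd36 and Vldlr stood at -0.54.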

How the data were processed

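Nuclei of visceral white fat from 8 mice were profiled with 3' droplet libraries. The authors deposited UMI counts per gene and barcode, made with Cell Ranger 7.1.0 per the file headers and 5.0.1 per the submitters' processing notes, which also name mm39 and bcl2fastq 2.20.0. The annotation and any counting of introns are not given in the sources used here, and intron counting would change the level of long genes.

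A barcode counted as a nucleus when its UMIs reached both 500 and 0.1 times the 99th percentile among the library's 5000 largest barcodes, with 300 genes or more and mitochondrial UMIs of 5% or less. Automatic scrublet calls were too few to use, so the highest doublet scores were removed at 0.8% per 1000 nuclei. Clustering used scanpy 1.11.5 (2000 variable genes without the 9 members, 30 components, 15 neighbours, Leiden resolution 1). Clusters were named from at least 3 raised markers, and clusters with a second lineage were called mixed and left out.

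Counts were summed per library and class (at least 20 nuclei) and tested with edgeR 4.0.16 in R 4.3.3: TMM, filterByExpr, all 4 groups in 1 fit, quasi-likelihood test, Benjamini-Hochberg adjustment over all genes tested, threshold 0.05. The CPM values are UMIs over the UMIs of the class in that library, without TMM factors. DESeq2 1.42.0, filters, clustering settings, a free RNA subtraction and leaving out each mouse were alternatives, and the script was tested on simulated data. The SE beside an edgeR log2 change was derived from the test, as the absolute change over the square root of its F statistic. Intervals and floors of 3 UMIs cover counting error only. The 9 genes are all described. Of the other lists, at most the 3 genes of smallest adjusted p per list are named. The members and lists were chosen with earlier results of these data known. Replicates of a group differed by more than sampling noise. The genes most like Acsl1 in level are not reported here.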

Additional observations from a re-analysis of the deposited data

Results flagged for a closer look

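The diet, Tert and TertCi contrasts differed between macrophage-like and adipocyte-like nuclei for 4 of the genes, by the test of the difference itself. For the diet the difference of log2 changes was 2.48 for Lpl, 0.82 for Cd36, 1.85 for Slc27a1 and -1.21 for Acsl1. For Tert it was -1.002 for Slc27a1. For TertCi it was -1.37 for Lpl, -0.74 for Cd36 and -1.74 for Slc27a1. With free RNA subtracted none of these differences was called and that of Slc27a1 for the diet was -2.03, though this subtraction weighed unequally on the diets in adipocyte-like nuclei. DESeq2 called 2, 0 and 1 differences for diet, Tert and TertCi.

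Higher levels also appeared in classes outside the comparisons, where the lowest mCherry HFD library stood at least 2-fold above the highest mCherry SD library, a rule chosen after the progenitor-like values had been seen. The rule looks at rises only, and the share of all genes that pass it was not counted. Fabp5 in progenitor-like nuclei was at 12.1 CPM or more in mCherry HFD with no UMI in mCherry SD. In the same nuclei macrophage markers summed to 79.5 and 69.8 CPM in mCherry SD (C1qa at 0 in rep144, Cd68 in both) and to 259 and 289 CPM in mCherry HFD, and T and NK cell markers to 43.5 and 17.9 CPM against 53.8 and 66.7 CPM, with Cd3e, Trbc2 and Nkg7 at 0 in both mCherry SD mice and Cd3e and Nkg7 in mCherry HFD rep129. In mural-like nuclei, where mCherry SD was 1 library, Lpl was at 561 CPM or more against 77.3 CPM, Cd36 at 1258 CPM or more against 605 CPM, and Fabp5 at 28.2 CPM or more against no UMI. Vldlr was lower there in mCherry HFD, at 2.97 and 0 CPM (2 and 0 UMIs) against 42.2 CPM (6 UMIs). Free RNA levels of Lpl, Cd36 and Fabp5 were also higher in mCherry HFD, for Cd36 at 1922 and 1316 CPM against 928 and 1223 CPM. The part of free RNA and of these markers in the values was not tested.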

How the results depend on the processing

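For diet, Tert and TertCi the reported counts of called genes were 3, 1 and 2 (adipocyte), 4 each (macrophage), 1, 2 and 4 (endothelial), and 4, 1 and 3 (the macrophage minus adipocyte difference). Values of called genes were recomputed 538 times: 428 kept direction and call, 107 lost the call and 3 changed sign. None of the 9 genes was called between Tert HFD and TertCi HFD under any alternative run. Counts are listed below where they moved by over 1.5 times. In perivascular-like subclusters alone they were 3 for the diet and 3 for TertCi. Apart from the subcluster runs, the share of all genes called is not given for the alternative runs. A count that moved there cannot be told apart from a move in the share of all genes called. Subclusters taken alone were alternatives chosen after seeing the data. Leiden resolution 2.0 gave no endothelial-like class. No paired analysis was possible because the groups share no replicate numbers. With 2 mice per group, 63 adipocyte-like nuclei in mCherry HFD rep129 and 24 endothelial-like nuclei in mCherry SD, small differences were rarely called in simulated data. Those data had few changed genes and the same spread for every gene. Unless a value below shows the cause, the cause was not tested.

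Without a filter on low counts, the genes called numbered 5 (adipocyte, diet), 3 (adipocyte, Tert), 2 (endothelial, diet), 3 (the macrophage minus adipocyte difference, Tert), 5 (the macrophage minus adipocyte difference, TertCi), and the sign changed for Vldlr 0.030 (adipocyte, Tert), Slc27a1 0.052 (macrophage, diet), Vldlr -0.018 (macrophage, TertCi). With free RNA subtracted, the genes called numbered 1 (adipocyte, diet), 0 (adipocyte, Tert), 0 (adipocyte, TertCi), 0 (endothelial, diet), 0 (endothelial, Tert), 1 (endothelial, TertCi), 0 (the macrophage minus adipocyte difference, diet), 0 (the macrophage minus adipocyte difference, Tert), 0 (the macrophage minus adipocyte difference, TertCi), and the sign changed for Lpl 0.12 (adipocyte, Tert), Lpl 0.018 (adipocyte, TertCi), Cd36 -0.18 (adipocyte, TertCi), Acsl1 -0.040 (adipocyte, TertCi), Slc27a1 0.54 (macrophage, diet), Acsl1 0.65 (macrophage, diet), Acsl1 -0.037 (macrophage, Tert), Slc27a1 1.78 (endothelial, diet), Slc27a1 -2.03 (the macrophage minus adipocyte difference, diet). With Leiden resolution 2.0, the genes called numbered 3 (the macrophage minus adipocyte difference, Tert), and the sign changed for Lpl -0.10 (adipocyte, diet), Cd36 -0.0046 (adipocyte, diet), Lpl 0.28 (adipocyte, Tert), Cd36 0.024 (adipocyte, Tert), Acsl1 0.072 (adipocyte, Tert), Vldlr 0.15 (adipocyte, Tert), Lpl 0.31 (adipocyte, TertCi), Fabp4 0.026 (adipocyte, TertCi), Angptl4 0.044 (adipocyte, TertCi), Vldlr 0.066 (adipocyte, TertCi), Vldlr -0.0050 (macrophage, TertCi). At a threshold of 1000 UMIs in every library, the genes called numbered 0 (adipocyte, Tert), 3 (endothelial, diet), 2 (the macrophage minus adipocyte difference, Tert), and the sign changed for Acsl1 -1.09 (endothelial, diet), Cd36 0.031 (endothelial, TertCi). With mixed clusters named by best score, the genes called numbered 0 (adipocyte, Tert), 3 (endothelial, diet), 4 (endothelial, Tert), 2 (the macrophage minus adipocyte difference, Tert), and the sign changed for Lpl 0.081 (adipocyte, Tert), Vldlr 0.12 (adipocyte, Tert), Lpl 0.13 (adipocyte, TertCi), Acsl1 -0.16 (endothelial, diet), Angptl4 0.65 (endothelial, diet). In lipid-associated-like subclusters alone, the genes called numbered 0 (macrophage, Tert), 1 (macrophage, TertCi), and the sign changed for Cd36 0.0014 (macrophage, Tert), Cd36 0.20 (macrophage, TertCi). In perivascular-like subclusters alone, the genes called numbered 2 (macrophage, Tert), and the sign changed for Slc27a1 0.11 (macrophage, TertCi). By DESeq2, the genes called numbered 0 (endothelial, diet), 0 (endothelial, Tert), 1 (endothelial, TertCi), 2 (the macrophage minus adipocyte difference, diet), 0 (the macrophage minus adipocyte difference, Tert), 1 (the macrophage minus adipocyte difference, TertCi), and the sign changed for Vldlr -0.22 (macrophage, TertCi). With doublets kept, the genes called numbered 0 (endothelial, diet), 3 (the macrophage minus adipocyte difference, Tert), 5 (the macrophage minus adipocyte difference, TertCi), and the sign changed for Slc27a1 0.0063 (endothelial, diet), Gpihbp1 -0.070 (endothelial, diet). In capillary-like, arterial-like and venous-like subclusters alone, the genes called numbered 0 (endothelial, Tert), 1 (endothelial, TertCi). Leaving out each mouse in turn gave counts of 1 to 4 (adipocyte, diet), 0 to 2 (adipocyte, Tert), 0 to 2 (adipocyte, TertCi), 2 to 5 (macrophage, Tert), 2 to 5 (macrophage, TertCi), 0 to 2 (endothelial, diet), 0 to 3 (endothelial, Tert), 1 to 5 (endothelial, TertCi), 2 to 5 (the macrophage minus adipocyte difference, diet), 1 to 4 (the macrophage minus adipocyte difference, Tert), 3 to 5 (the macrophage minus adipocyte difference, TertCi). Log2 values that changed sign with a mouse left out ranged over Lpl -0.64 to 0.29 (adipocyte, Tert), Cd36 -0.50 to 0.098 (adipocyte, Tert), Acsl1 -1.52 to 0.39 (adipocyte, Tert), Angptl4 -1.30 to 0.13 (adipocyte, Tert), Vldlr -0.12 to 0.11 (adipocyte, Tert), Cd36 -0.018 to 0.24 (adipocyte, TertCi), Acsl1 -0.086 to 0.40 (adipocyte, TertCi), Angptl4 -0.66 to 0.38 (adipocyte, TertCi), Vldlr -0.36 to 0.097 (adipocyte, TertCi), Slc27a1 -0.36 to 0.38 (macrophage, diet), Acsl1 -0.59 to 0.098 (macrophage, diet), Vldlr -0.33 to 0.037 (macrophage, diet), Slc27a1 -0.18 to 0.015 (endothelial, diet), Gpihbp1 -0.13 to 0.89 (endothelial, diet), Gpihbp1 -3.65 to 0.25 (endothelial, Tert), Angptl4 -1.85 to 0.044 (endothelial, Tert), Angptl4 -1.17 to 0.12 (endothelial, TertCi).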
